A study of Mus musculus with 6 samples.

Results

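Cx3cr1 and 6 further receptor genes (Ccr1, Ccr2, Ccr6, Cxcr4, Cmklr1 and Ccrl2) were examined in bulk RNA-seq counts of CD11b+ cells sorted from mouse brain. They were chosen by gene symbol, and all 7 were found among the 55487 gene identifiers of the deposited table. The labels describe 3 control animals and 3 animals whose microglia had been depleted with BLZ-945, which blocks CSF1R, a kinase that microglia need to survive, and had repopulated the brain. The drug was eaten in peanut butter each day (200 mg per kg), and control mice ate peanut butter alone. Dosing lasted 14 or 21 days, without a statement of which applied to the sequenced animals, and 7 untreated days followed. Depleted mice were 18 to 22 months old according to the series description. All 6 animals carried the alleles GFP-M, Cx3cr1-CreERT2fl/fl and Rosa26-tdTomatotg/tg, as the labels spell them, so the Cre insertion at Cx3cr1 was present in controls too. The 6 value columns, named S1 to S6, carry no name that the sample labels use, and 0 of 6 could be tied to an animal or a treatment. They were taken as the 6 libraries of the series because the series lists 6 samples. Control and repopulated cells were therefore not compared, no p-value is given, and every median below is over 6 libraries whose treatment is not known.

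Chemokine receptors are membrane proteins that signal through G proteins and guide cell movement along gradients of small secreted ligands. Cx3cr1 is the receptor of fractalkine (Cx3cl1), a ligand made by neurons, and it is a standard marker of microglia, the macrophages that reside in brain tissue. Ccr2 marks inflammatory monocytes of the blood, Cxcr4 binds Cxcl12, and Ccr1 binds Ccl3 and related inflammatory ligands, and Ccr6 binds Ccl20. Cmklr1 is the signalling receptor of chemerin (Rarres2), whereas Ccrl2 is an atypical receptor that binds chemerin without signalling through G proteins.

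Cx3cr1 lies on chromosome 9 (GRCm38, chr9:119901616-120069879, minus strand), a protein-coding gene with 3 transcripts in GENCODE M21. The wide span comes from 1 of these transcripts, and 78 exonic bases are shared with Gm33858 on the other strand. The promoter of Cx3cr1 is shown because the Cre insertion is at this gene. That of Ccr6 is shown because its median level was the lowest of the set. Each run is the 250 bases before a RefSeq start site (GRCm38.p6) that also starts a GENCODE M21 transcript, at chr9:120068297-120068546 (minus strand) and chr17:8235793-8236042 (plus strand). Capitals mark GGAA or its reverse complement TTCC, the core letters bound by ETS factors such as PU.1.
Cx3cr1: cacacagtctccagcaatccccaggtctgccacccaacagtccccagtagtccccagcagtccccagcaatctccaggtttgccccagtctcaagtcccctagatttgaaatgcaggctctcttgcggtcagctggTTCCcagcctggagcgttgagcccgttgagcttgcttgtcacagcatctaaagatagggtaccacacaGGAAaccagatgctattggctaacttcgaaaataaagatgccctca
Ccr6: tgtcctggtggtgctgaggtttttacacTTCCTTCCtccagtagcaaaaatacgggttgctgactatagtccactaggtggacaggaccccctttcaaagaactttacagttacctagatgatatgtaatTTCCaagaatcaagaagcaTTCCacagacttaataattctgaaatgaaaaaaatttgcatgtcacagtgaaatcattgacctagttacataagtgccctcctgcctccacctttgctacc
The Cx3cr1 window held 2 matches and the Ccr6 window held 4. A match on either strand occurred in 93.4% of the 32851 windows of this length, so these letters do not set either gene apart.

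The libraries held between 4435850 and 12534701 counts. Library S2 stood apart: it was the shallowest, and its correlation with the others on log2 CPM (counts scaled to the same library total) was at most 0.92, against 0.96 to 0.98 among the rest. In S2, 1 identifier without a match in the annotation took 4.19% of counts (1.02% to 1.51% elsewhere), and mitochondrial genes took 0.187% (0.891% to 1.55% elsewhere). Microglia were described by 11 marker genes, with medians from 672 to 7946 CPM, which summed to 19554 to 22970 CPM per library. S2 had the lowest level of 7 of these markers and the highest of 3. P2ry12, a purinergic receptor of microglia, was at 389 CPM in S2 against 1212 to 1868 elsewhere, whereas Trem2, a lipid-sensing receptor, was at 1290 CPM there against 592 to 718 elsewhere. The highest-to-lowest ratios that S2 takes part in are also given without it.

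Cx3cr1 was by far the most abundant of these receptors. It reached 2344 CPM in S1, 1669 in S2, 2436 in S3, 1815 in S4, 2067 in S5 and 2075 in S6. S3 and S1 were highest and S2 lowest. Levels between genes were compared per exon length, in TPM (counts per base of exon, scaled to the same sum in each library), where Cx3cr1 ranked between 29 and 55 among 21961 protein-coding genes. Its median of 1758 TPM compared with 3047 TPM for Tmem119, a membrane protein that marks microglia, and 2311 TPM for P2ry12. The highest library exceeded the lowest 1.34-fold after TMM scaling, edgeR's correction for library composition (95% counting interval 1.31 to 1.38), and 1.30-fold without S2. All such ratios below are on the TMM scale, so they differ somewhat from quotients of the printed CPM. For Cx3cr1, 30.3% of the 277 genes nearest in median CPM had a smaller ratio. Few genes had a higher median, so most of these 277 lay below Cx3cr1 in level. The counts are per gene and the table holds only Ensembl mouse gene identifiers. They do not separate transcripts of the wild-type locus from those of the locus with the Cre insertion, nor give a value for Cre.

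**Figure D1:**
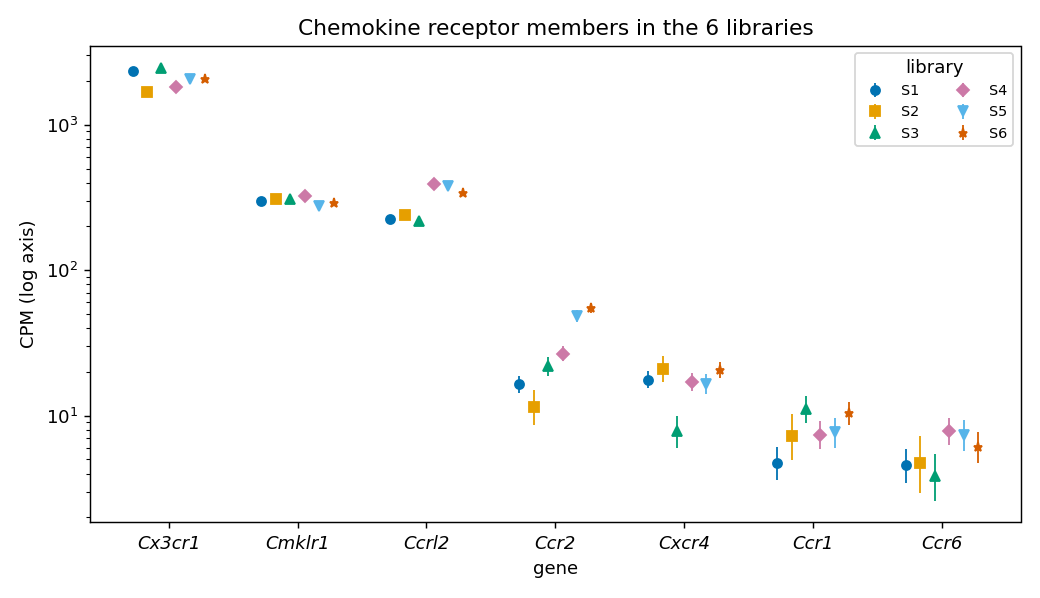
CPM (log axis) of the 7 receptor genes in the libraries S1 to S6, with exact Poisson 95% intervals of the counts as bars. Cx3cr1 lies between 1669 and 2436 CPM in every library, Cmklr1 and Ccrl2 lie between 217 and 393 CPM, and the other 4 genes reach at most 54.6 CPM.

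The chemerin-binding receptors Cmklr1 and Ccrl2 came next. Cmklr1 was the steadiest gene of the set, at 299.7 CPM in S1, 309 in S2, 306 in S3, 323 in S4, 278 in S5 and 289 in S6. Its highest-to-lowest ratio was 1.17 (95% counting interval 1.09 to 1.25) and 1.16 without S2, and 10.0% of the 500 genes nearest in level varied less. Ccrl2 was at 224 CPM in S1, 239 in S2, 217 in S3, 393 in S4, 378 in S5 and 337 in S6. S4, S5 and S6 were high and S1, S2 and S3 low, and the highest exceeded the lowest 1.87-fold (1.77 to 1.97). The ratio was smaller in 80.0% of its 500 neighbours in level. Per length, Ccrl2 (median 415 TPM, range 331 to 575) and Cmklr1 (342 TPM, 316 to 361) overlapped, and Ccrl2 was the higher in 4 of 6 libraries. Their shared ligand gene Rarres2 had 0 counts in 3 libraries and at most 12 in any other, a median of 0.134 CPM.

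Ccr2 varied most. It was at 16.4 CPM in S1, 11.5 in S2, 21.9 in S3, 26.7 in S4, 48.6 in S5 and 54.6 in S6. S5 and S6 lay well above the rest, and their counting intervals (44.2 to 53.3 and 50.4 to 59.1 CPM) did not reach that of S4 (23.8 to 29.9 CPM). The highest-to-lowest ratio was 4.51 (3.38 to 6.12) and 3.47 without S2, and 97.2% of the 500 genes nearest in level had a smaller one. Of the 6758 distinct stretches of 50 bases in Ccr2 transcripts, 1.91% occurred in transcripts of other genes. How the counting treated reads that fit several genes is not given in the sources used here.

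Some genes of the neutrophil and monocyte marker lists were high in S5 and S6 too. S100a9, a calcium-binding protein of neutrophils and monocytes, was at 46.1 CPM in S5 and 47.2 in S6, against 6.14 to 15.8 in the other libraries. Ngp, a neutrophil granule protein, was at 50.7 and 56.9 CPM there and at 10.9 to 15.7 elsewhere. Chil3, made by monocytes and neutrophils, was at 23.9 and 25.4 CPM in S5 and S6 and at 3.59 to 4.39 elsewhere. These 3 genes were picked from the lists after their values were seen. The 9 T and NK cell markers also summed higher there, to 13.4 CPM in S5 and 5.80 in S6, against 1.61 to 3.59 elsewhere. The sum of the 5 B cell markers did not follow, at 220.7 CPM in S5 and 219.9 in S6, against 220.9 to 486 elsewhere. Most of that sum was Ighm, at 197 to 469 CPM, so it says little about the other B cell markers. Over the whole lists, the 8 neutrophil markers summed to 1084 CPM in S5 and 1091 in S6 against 729 to 898 elsewhere, most of it Csf3r, a cytokine receptor that microglia also express, which had 658 to 886 CPM in every library. The 8 monocyte markers summed to 128 CPM in S5, 117 in S6 and 116 in S2, against 60.7 to 80.5 in the other 3. Fn1, a matrix protein, made up 97.4 CPM of the sum in S2, and S100a4 had 0 counts throughout. Their part in the Ccr2 values was not tested. In bulk samples, fewer cells of a type and less RNA per cell cannot be told apart.

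**Figure D2:**
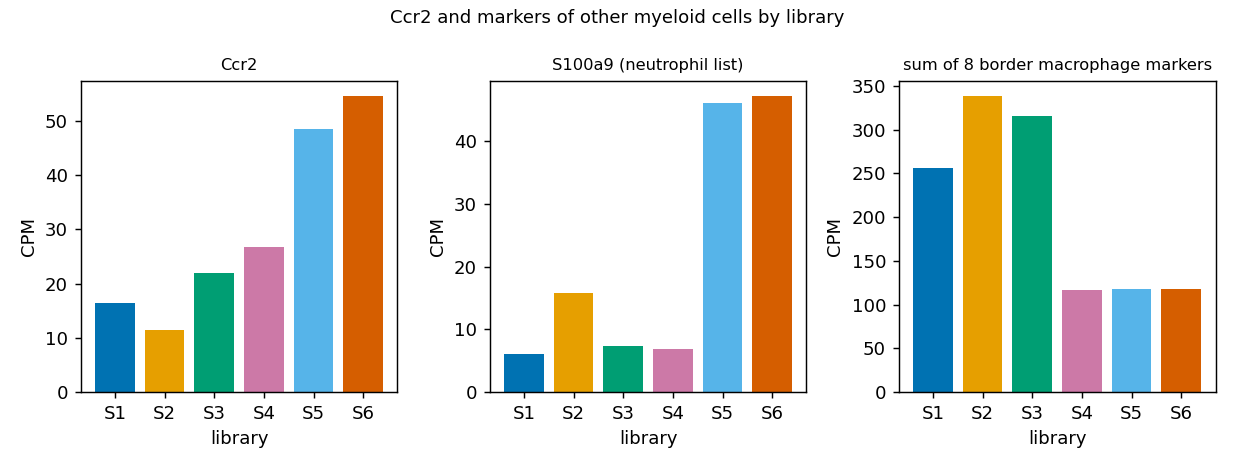
CPM of Ccr2, of S100a9 and of the sum of 8 border macrophage markers, 1 bar per library from S1 to S6. Ccr2 and S100a9 are highest in S5 and S6, whereas the border macrophage sum is 256 to 339 CPM in S1, S2 and S3 and 117 to 118 CPM in S4, S5 and S6.

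The summed level of border macrophage markers, genes of the macrophages at brain vessels and meninges, was lower in S4, S5 and S6, where Ccrl2 was highest. The 8 markers all had a median of at least 1 CPM. Their sum was 256 CPM in S1, 339 in S2 and 316 in S3, against 117 in S4, 118 in S5 and 118 in S6. Mrc1, the mannose receptor, was the most abundant of them at 143, 152 and 164 CPM in S1, S2 and S3 and 63.3, 66.0 and 54.3 CPM in S4, S5 and S6. Not every marker followed the sum: Lyve1, a hyaluronan receptor, was at 3.22 CPM in S3 but 4.46 in S6, and Ms4a7 was at 15.6 CPM in S2 but 16.3 in S6. The part of these cells in the Ccrl2 values was not tested.

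Cxcr4, Ccr1 and Ccr6 were low in every library. Cxcr4 was at 17.7 CPM in S1, 21.0 in S2, 7.79 in S3, 17.1 in S4, 16.5 in S5 and 20.7 in S6. S3 alone was low, with a counting interval of 5.99 to 9.97 CPM below those of all other libraries. The highest-to-lowest ratio of 2.93 (2.10 to 4.10) became 1.33 without S3 and 2.74 without S2. Ccr1 was at 4.71 CPM in S1, 7.21 in S2, 11.1 in S3, 7.40 in S4, 7.67 in S5 and 10.4 in S6. S1 was lowest, and the ratio of 2.39 (1.71 to 3.38) became 1.46 without it. Ccr6 was at 4.55 CPM in S1, 4.73 in S2, 3.83 in S3, 7.85 in S4, 7.35 in S5 and 6.07 in S6. As for Ccrl2, S4, S5 and S6 were the higher libraries, and the highest-to-lowest ratio was 2.11 (1.39 to 3.30). With counts of 21 to 87 reads, the intervals of S1 (3.44 to 5.89 CPM) and S6 (4.71 to 7.69 CPM) overlapped. The interval of S4 (6.29 to 9.68 CPM) overlapped that of S2 (2.93 to 7.24 CPM). It did not reach those of S1 and S3 (2.61 to 5.44 CPM for S3). For Ccr1 and Ccr6 the spread lay below the median of genes at their level, with 45.6% and 26.8% of 500 neighbours varying less.

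**Figure D3:**
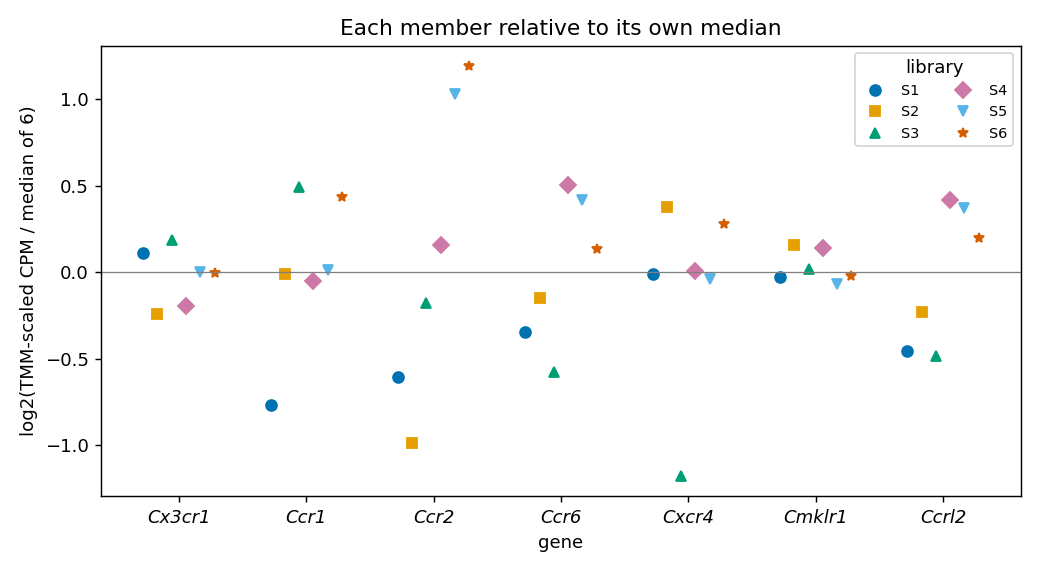
TMM-scaled CPM of each receptor gene relative to its own median over the 6 libraries, on a log2 scale, 1 point per library. Ccr2 spans the widest range with S5 and S6 on top, Cxcr4 is low in S3 alone, and Ccr6 and Ccrl2 are above their medians in S4, S5 and S6.

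Across the 21 pairs of these genes, the log2 levels of Ccr6 and Ccrl2 were the most alike (Pearson r = 0.98 over 6 libraries). Cx3cr1 and Cmklr1 were the most opposed (r = -0.77). These are descriptions over 6 points that share library depth and composition, and that mix treatments.

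Per length the order of medians was Cx3cr1 (1758 TPM), Ccrl2 (415), Cmklr1 (342), Cxcr4 (37.4), Ccr2 (13.9), Ccr1 (10.2) and Ccr6 (8.80). Cx3cr1 exceeded Ccrl2 4.24-fold at the median, Cmklr1 exceeded Cxcr4 9.14-fold, and in both cases the ranges did not overlap. The ranges of the other 4 neighbouring pairs in this order overlapped, although Cxcr4 was above Ccr2 in 6 of 6 libraries. Ccr1 was above Ccr6 in 3 of 6, so that these could not be ordered. With the longest transcript as length, the median was 8.06 TPM for Ccr1 and 9.19 TPM for Ccr6.

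Of 18 further receptors of the family that were considered, 7 had a median of at least 1 CPM. In all 14 of 25 did, and 16 did without S2. Among 21961 protein-coding genes 54.3% reached this level, so the count does not set the family apart. Cxcr6, the receptor of Cxcl16, had a median of 9.58 CPM. Its median per length was 19.0 TPM, below Cxcr4 (37.4) and above Ccr2 (13.9), Ccr1 (10.2) and Ccr6 (8.80). It was above Ccr2 in 4 of 6 libraries. Ccr9, a receptor of gut-homing lymphocytes, had 4.52 CPM, but 269 of its exonic bases are shared with another gene on the same strand. Per length, Ccr9 (median 1.74 TPM) lay below Ccr7 (3.48), Ccr10 (3.11) and Xcr1 (1.79), and above Cxcr2 (1.62) and Ackr4 (1.29). Ccr1l1 (2.59) and Cxcr3 (2.01), both with medians under 1 CPM, also lay above Ccr9 per length. Xcr1, a marker of cross-presenting dendritic cells, had 2.07 CPM. Ccr7, which guides dendritic cells and T cells to lymph nodes, had 1.78 CPM. Ackr4, a scavenging receptor, had 1.77 CPM, and Ccr10, a receptor of skin-homing cells, had 1.36 CPM. Cxcr2, the chemokine receptor of neutrophils, had a median of 1.29 CPM and was highest in S5 (6.18 CPM) and S6 (3.12 CPM). The other 11 had medians from 0 to 0.906 CPM, and Ccr8 and Cxcr1 had 0 counts in all 6 libraries, where 3 counts would correspond to 0.239 to 0.676 CPM.

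**Figure D4:**
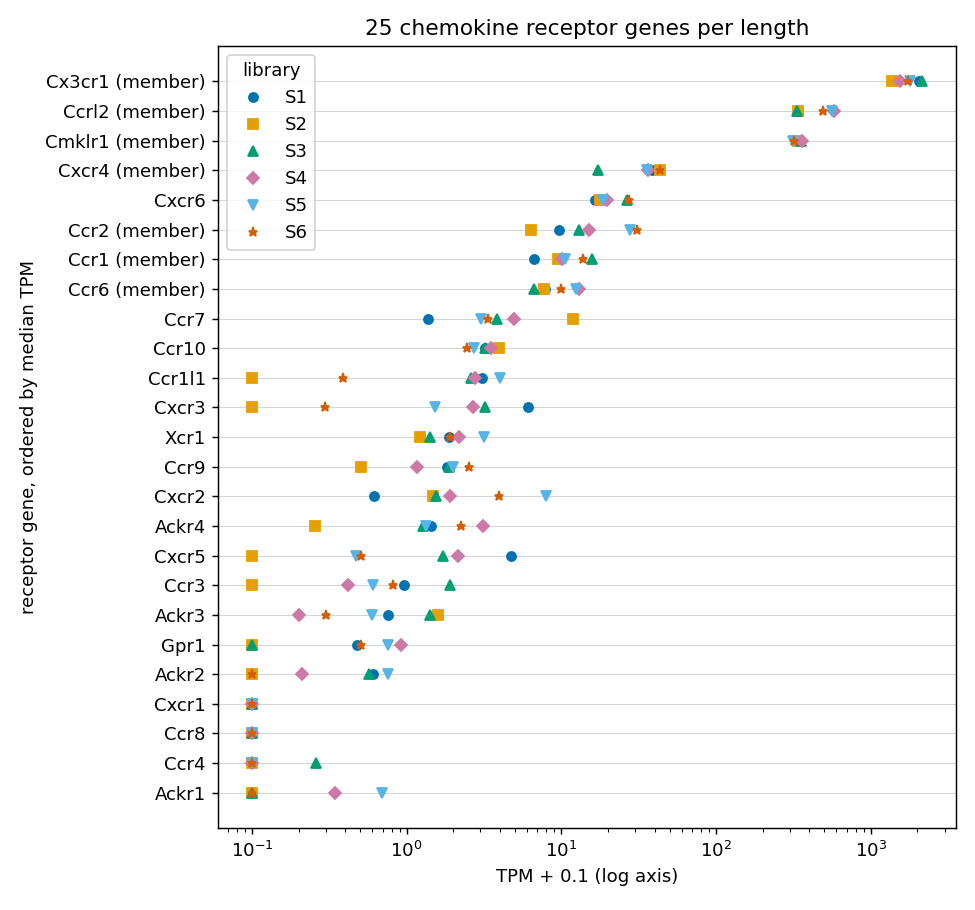
TPM + 0.1 (log axis) of the 25 chemokine receptor genes considered, ordered by median, 1 point per library. Cx3cr1, Ccrl2 and Cmklr1 have medians of 342 TPM or more, and Cxcr4 lies at 37.4 TPM.

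Chromosome 9 carries 14 of the 25 receptors considered, 4 of the set among them. Of these, 7 lay within 1 Mb of Ccr1 (chr9:123962124-123968692, minus strand), Ccr1 included. Ccr2 (chr9:124101950-124113557, plus strand) starts 133 kb from the Ccr1 start, with a median of 13.9 TPM. Ccr1l1, a paralog of Ccr1 at 9.72 kb, had a median of 2.59 TPM and 0 counts in S2, and Ccr3, an eosinophil receptor at 53.3 kb, had 0.613 TPM. The highest median of the 7 was that of Cxcr6, at 19.0 TPM (range 16.3 to 27.4). Xcr1 had 1.79 TPM and Ccr9 had 1.74 TPM. Ccrl2 (chr9:111054486-111057519, minus strand) and Cx3cr1 lie on the same chromosome outside this stretch. Cxcr4 is on chromosome 1 (chr1:128588199-128592293, minus strand), Cmklr1 on chromosome 5 (chr5:113612354-113650426, minus strand) and Ccr6 on chromosome 17 (chr17:8236043-8257141, plus strand).

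**Figure D5:**
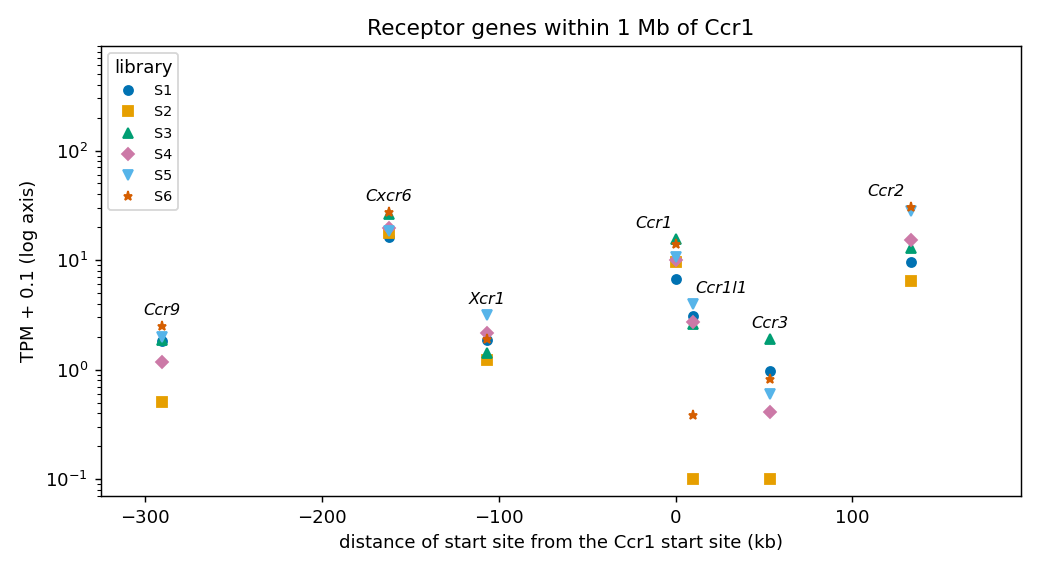
TPM + 0.1 (log axis) of the 7 receptor genes considered within 1 Mb of Ccr1, plotted by the distance of their start sites from that of Ccr1 in kb, 1 point per library. Ccr1 and Ccr2 have medians of 10.2 and 13.9 TPM, whereas Ccr1l1 and Ccr3, whose starts lie between theirs, have 2.59 and 0.613 TPM. Cxcr6, at 19.0 TPM, has the highest median of the 7.

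Ligand genes differed by receptor. Cx3cl1 had a median of 0.545 CPM with 0 counts in S2, and Ccl20, the ligand of Ccr6, had 0 counts throughout. The 5 listed ligands of Ccr1 all had a median of at least 1 CPM, led per length by Ccl3 (median 865 TPM, range 428 to 926). Ccl12, a ligand of Ccr2, had a median of 440 TPM with 93.4 in S2, and Ccl2 had 83.3 TPM with 14.7 in S2. Cxcl12 had 1.54 TPM and Mif, a cytokine that also binds Cxcr4, had 104 TPM.

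Of 23 genes for signalling and ligand shedding, 22 had a median of at least 1 CPM, against 54.3% of the 21961 protein-coding genes. Gnai1, at a median of 0, was the exception, and Rgs18 (1.21 CPM) and Gng10 (2.13 CPM) were just above. Gnai2, an inhibitory G protein subunit of the kind through which the signalling receptors of the family act, had a median of 509 TPM. Arrb2, an arrestin that ends signalling, had 544 TPM, and Grk2, a receptor kinase, had 319 TPM. Rgs10 and Rgs2, which shorten G protein signals, had 556 and 602 TPM. Among the proteases that cleave fractalkine, Ctss had 13068 TPM, Adam10 329 TPM and Adam17 183 TPM.

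The genes whose pattern was most like that of Cx3cr1 over the 6 libraries, among 8466 protein-coding genes with a median of at least 10 CPM, were Slc35e3, Adgrg1, Atp8a2, Mcmbp and Dqx1 (Pearson r of 0.98 each on log2 TMM-scaled CPM). Adgrg1, an adhesion receptor also used as a marker of microglia, was at 634 CPM in S1, 458 in S2, 681 in S3, 518 in S4, 590 in S5 and 575 in S6. For Ccrl2 they were Hcar2, Lmnb1 and Cxcl16 (r of 0.99 each). Cxcl16, the ligand of Cxcr6, was at 165 CPM in S1, 161 in S2, 145 in S3, 334 in S4, 287 in S5 and 253 in S6. For Ccr2 they were Tmem241, Lst1 and Snx5, for Cxcr4 Ankmy2, Ppt1 and Hspa4l, and for Cmklr1 Slc9a8, Pisd and Dnajc21 (r of 0.97 to 0.99). These lists rest on 6 points. When any 1 library was left out, at most 1 of the 5 genes for Cx3cr1, and at most 2 of the 3 for Ccrl2, stayed among the most alike.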

How the data were processed

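CD11b+ brain cells of 6 mice were profiled by stranded polyA RNA-seq, per the labels' protocols. The deposited values are whole-number counts per Ensembl gene. The submitters' processing notes name cutadapt 3.0, STAR 2.7.10b, DESeq2, edgeR 4.2.0, GRCm38 and mm10, and the counting tool and annotation are not given in the sources used here. Depth was 4435850 to 12534701 counts, and intervals and floors cover counting error only. Identifiers were matched to GENCODE M21 (55227 of 55487). CPM used column totals, TPM the union of exons, and TMM edgeR 4.0.16 with R 4.3.3. DESeq2 1.42.0 size factors were an alternative. Other steps used Python 3.11.15. Intervals are exact Poisson, or for ratios exact binomial (Clopper-Pearson), at 95%. The 6 columns were used without groups, so no test was run. All 7 genes, every other receptor with a median of at least 1 CPM, ligands and signalling genes from lists, and for likeness the 5 (Cx3cr1) or 3 genes of highest Pearson r were named. One receptor of the list is not reported here and stays out of all counts over receptors. Likeness used a pseudocount of 0.5. A simulation, in which planted genes were ranked against the profile they shared, checked the code only and cannot show how stable these lists are. Members and lists were chosen with earlier results of these data known.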

Additional observations from a re-analysis of the deposited data

Results flagged for a closer look

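In 25 receptor and ligand genes, the lowest and the highest of the 6 libraries were compared with the nearest other library by Dixon's criterion. Of these 50 values 5 stood apart, in 5 of the 25 genes. Chance sets apart about 1 gene in 20 with both ends examined, and the 6 libraries mix treatments. Cxcr4 was at 7.79 CPM in S3 with the next library at 16.5. Ccr7 was at 6.31 CPM in S2 with the next at 2.53. In S4, Ccl5 was at 19.3 CPM with the next at 5.11, Ccl7 at 8.75 with the next at 3.83, and Mif at 35.4 with the next at 21.6.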

How the results depend on the processing

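No paired analysis was possible because the columns carry no replicate numbers and were tied to no sample. The median CPM of the 7 genes moved by less than the SD over libraries in 61 of 63 recalculations. The exceptions were Cmklr1, at 275 CPM with DESeq2 size factors and 328 CPM over protein-coding genes off the mitochondrial chromosome. Median TPM did so in 52 of 56. With the longest transcript as length, Cx3cr1 was at 1390.3 TPM and Cmklr1 at 319.5, and with TPM over protein-coding genes they were at 2177 and 418. The highest-to-lowest ratio stayed within its counting interval in 51 of 56. With column totals the ratio of Cx3cr1 was 1.46, and 48.4% of its 277 neighbours in level had a smaller one. With 1 library left out the ratio was 1.28 to 1.34 for Cx3cr1, 1.46 to 2.39 for Ccr1 and 1.33 to 2.93 for Cxcr4. The count of receptors with a median of at least 1 CPM stayed within 1.5 times 14 in all 9 recalculations, which is a wide band. It was 18 with a minimum of 0.5 CPM and 11 with at least 1 CPM required in every library. The lists of most alike genes were unstable, with 32 of 45 recalculations, those leaving out 1 library having been added after the data were seen, sharing too few genes to stay within 1.5 times the full list. The cause was not tested. Depth limits Ccr6 and Ccr1, which had 21 to 116 counts per library.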

Other observations

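Ccrl2 fell into separate ranges over the 6 libraries, which carry no group label here. It was at 217 CPM in S3, 224 in S1 and 239 in S2, and at 337 in S6, 378 in S5 and 393 in S4. Cd163, a scavenger receptor of border macrophages, was at 31.9 CPM in S1, 44.7 in S3 and 53.9 in S2, and at 6.61 in S5, 8.84 in S6 and 11.9 in S4. It is 1 of 8 border macrophage markers, and not all of them split this way. Lyve1 was at 3.22 CPM in S3 but 4.46 in S6, and Ms4a7 at 15.6 in S2 but 16.3 in S6. Ighm, the heavy chain gene of IgM and the most abundant of 5 B cell markers, dominated their sum of 219.9 to 227 CPM in 5 libraries and 486 CPM in S4.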
